A study of Mus musculus with 8 samples.

Results

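The genes described here encode subunits of the L-type and T-type voltage-gated calcium channels of the heart. They are the 10 rows of the count table whose Entrez numbers belong to the pore genes Cacna1c, Cacna1d, Cacna1g and Cacna1h, the β subunit genes Cacnb1, Cacnb2 and Cacnb3, the α2δ subunit genes Cacna2d1 and Cacna2d2, and the γ subunit gene Cacng6. The table holds 23282 genes, and all 10 rows were found in it. The hearts came from male mice of the FVB/N strain at 4 months of age, with no treatment labelled, and RNA-seq gave 4 AE3-null and 4 wild-type libraries. Slc4a3 encodes AE3, which exchanges chloride for bicarbonate across the plasma membrane of cardiomyocytes. The labels do not describe the allele further or tie libraries to animals beyond the stated 4 mice of each genotype, so the tests measure spread between libraries, which may be partly technical.

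A voltage-gated calcium channel is built around a single large pore protein that senses the membrane voltage and lets calcium through. L-type pores open at strong depolarization, close slowly, and in the ventricle supply the calcium that triggers release from the sarcoplasmic reticulum at each beat. They work together with an intracellular β subunit and an extracellular α2δ subunit, which aid surface delivery and tune opening. T-type pores open at more negative voltages, close quickly, function without these partners in many settings, and in the adult heart are best known from the sinoatrial node, the conduction system and the atria.

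Total counts were 9133628 to 27078351 per library, the lowest being AE3-null replicate 2. Slc4a3 had 32.9 ± 1.26 CPM in AE3-null hearts and 384 ± 4.60 CPM in wild-type hearts (SD, n = 4 each), so each library matched its label. CPM express each count relative to its TMM-scaled library total. The ventricular light chain gene Myl2 was at 5084 to 5332 CPM in AE3-null libraries and 5026 to 5305 CPM in wild-type libraries. A gene is called here when its adjusted p is under 0.05 in edgeR's quasi-likelihood test over all 14136 genes that passed the filter on low counts. The called share was 6.47% of those genes: 3.16% rose and 3.31% fell in AE3-null hearts, which is 447 and 468 genes. With scaling by total counts alone the split was 528 higher and 361 lower. In whole hearts, a change in the number of cells of a type and a change in RNA per cell cannot be told apart.

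Of the 10 channel subunit genes 9 passed the filter, and 3 of these 9 rose in AE3-null hearts: the L-type pore gene Cacna1d, the T-type pore gene Cacna1g and the α2δ gene Cacna2d2. None of the 9 was called lower by edgeR, DESeq2 or limma voom, and none was lower at an unadjusted p under 0.05. The main ventricular L-type subunits Cacna1c and Cacna2d1 had log2 fold changes near 0. The rises were modest, between 21.4% and 40.2%. The median log2 fold change of the 9 tested members was 0.18, against -0.0018 over all tested genes. The 4 AE3-null libraries lay above all 4 wild-type libraries in 3 of the 9 members, a pattern found in 6.1% of all tested genes (12.2% when either direction is counted), and in the other 6 members the genotypes overlapped. The members were chosen with earlier results of these data known, so these comparisons with all tested genes are descriptions only.

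**Figure D1:**
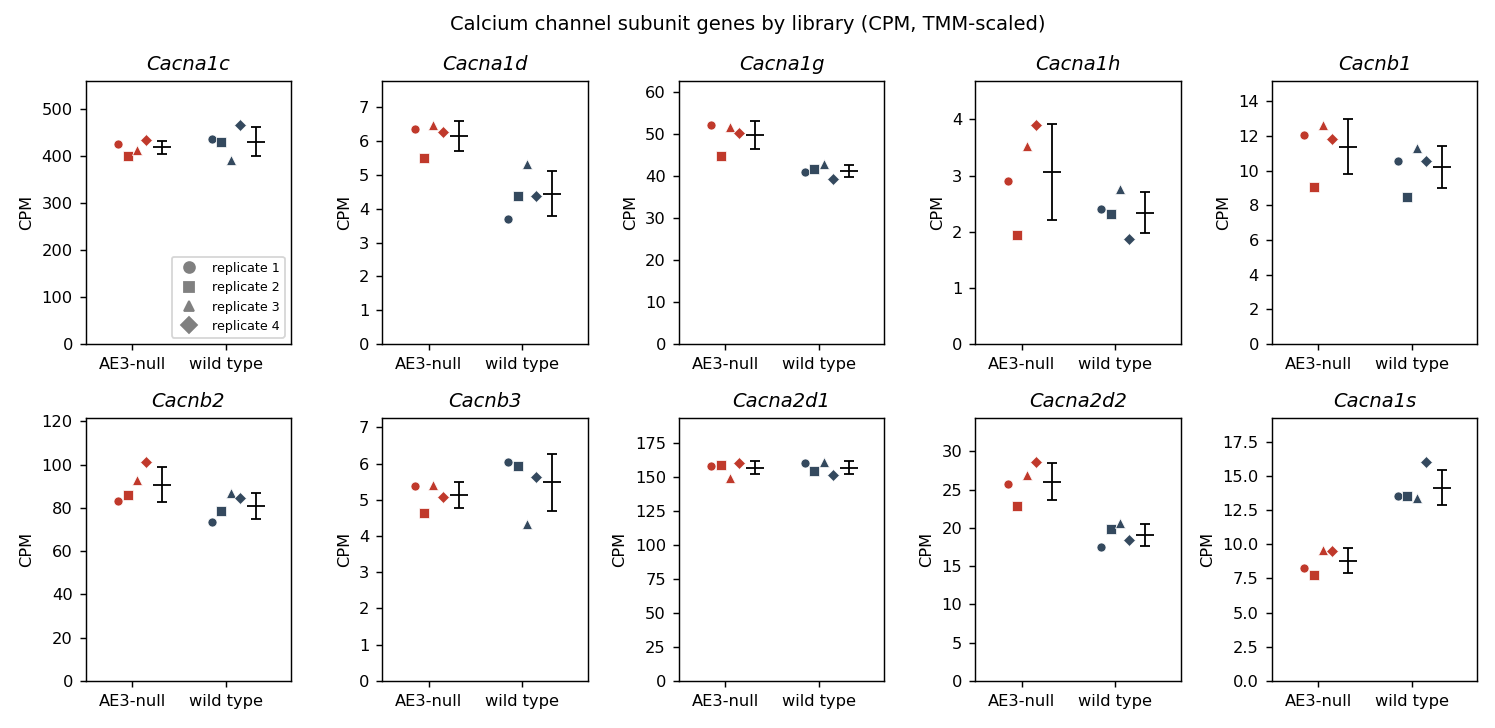
CPM of the 9 tested subunit genes and of Cacna1s in each library (points, marker shape gives the replicate number), with the mean and SD of 4 libraries beside them; each vertical axis starts at 0. AE3-null points lie above all wild-type points for Cacna1d, Cacna1g and Cacna2d2, below them for Cacna1s, and among them for the other 6 genes.

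Of the α2δ genes, Cacna2d2 rose and Cacna2d1 had a fold change close to 0. Cacna2d2 (Entrez 56808) encodes an α2δ subunit known from the brain and also expressed in atrial muscle. It had 25.7, 22.8, 26.8 and 28.7 CPM in AE3-null replicates 1 to 4, against 17.5, 19.9, 20.6 and 18.3 CPM in wild-type replicates 1 to 4. The lowest AE3-null library, replicate 2, was still above the highest wild-type library. The fitted difference was log2 0.46 (SE 0.073, edgeR adjusted p 0.00135), the smallest p among the members. Cacna2d1 (Entrez 12293), the predominant cardiac α2δ subunit, had 158, 159, 149 and 160 CPM in AE3-null replicates 1 to 4 and 160, 154, 161 and 151 CPM in wild-type replicates 1 to 4. The groups overlapped throughout, and the log2 fold change was -0.0018 with an approximate 95% interval of -0.075 to 0.072.

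The stretches of 250 bases before the annotated starts of these genes are shown because the paralogs behaved differently, together with that of the related pore gene Cacna1s, which fell. They are RefSeq sequences of assembly GRCm38.p6 on the gene's own strand, which for all 3 is the plus strand: chr9:107399630-107399879 for Cacna2d2, chr5:15934441-15934690 for Cacna2d1 and chr1:136052561-136052810 for Cacna1s. Capitals mark GC boxes (GGGCGG or its reverse complement CCGCCC) and E-boxes (CANNTG), where N is any base.
Cacna2d2: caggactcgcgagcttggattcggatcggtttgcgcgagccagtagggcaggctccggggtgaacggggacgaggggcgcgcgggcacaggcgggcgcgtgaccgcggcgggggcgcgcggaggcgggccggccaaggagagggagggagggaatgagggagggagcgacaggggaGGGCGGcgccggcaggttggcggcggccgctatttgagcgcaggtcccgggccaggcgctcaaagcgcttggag
Cacna2d1: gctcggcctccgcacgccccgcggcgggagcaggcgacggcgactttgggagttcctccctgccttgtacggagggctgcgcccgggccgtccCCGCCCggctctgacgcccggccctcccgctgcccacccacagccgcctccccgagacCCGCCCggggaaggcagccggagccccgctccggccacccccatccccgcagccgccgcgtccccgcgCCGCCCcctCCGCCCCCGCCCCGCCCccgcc
Cacna1s: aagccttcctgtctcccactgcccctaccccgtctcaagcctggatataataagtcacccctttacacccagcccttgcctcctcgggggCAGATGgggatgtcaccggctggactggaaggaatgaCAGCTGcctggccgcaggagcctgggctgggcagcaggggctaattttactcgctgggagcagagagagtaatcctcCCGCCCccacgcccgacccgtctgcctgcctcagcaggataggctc
The Cacna2d2 window had a GC content of 74.4%, with 1 GC box and no E-box. Upstream of Cacna2d1 the GC content was 82.4%, with 6 GC boxes, some overlapping each other, and no E-box. The Cacna1s window had a GC content of 62.4%, 1 GC box and 2 E-boxes. Of 32851 such windows in the RefSeq table, 32.7% held a GC box and 66.2% an E-box on either strand. Windows were available for 8 of the 10 members, and Cacna1g and Cacna1h were not among them. The matches describe letters only, since nothing in these data measures binding.

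Among the L-type pore genes, Cacna1c (Entrez 12288) encodes the channel that carries most of the ventricular L-type current. It had 425, 401, 414 and 434 CPM in AE3-null replicates 1 to 4, and 436, 429, 391 and 466 CPM in wild-type replicates 1 to 4. Wild-type libraries spanned the whole AE3-null range. The difference was log2 -0.04 (SE 0.046, edgeR adjusted p 0.676), with an approximate 95% interval of -0.13 to 0.050. Cacna1d (Entrez 12289) encodes the L-type pore of sinoatrial and atrial cells, which opens at more negative voltages than that of Cacna1c. Its level was 6.36, 5.49, 6.47 and 6.26 CPM in AE3-null replicates 1 to 4, against 3.71, 4.36, 5.31 and 4.39 CPM in wild-type replicates 1 to 4. The groups were separate, by a narrow gap between AE3-null replicate 2 and wild-type replicate 3. It rose by log2 0.49 (SE 0.119, edgeR adjusted p 0.0216). This call rested on 51 to 170 counts per AE3-null library and 60 to 82 per wild-type library. It was lost when wild-type replicate 1 or 4 or AE3-null replicate 1, 3 or 4 was left out, with adjusted p-values of 0.0615 to 0.073 and log2 fold changes of 0.41 to 0.48. The opposite-strand gene Chdh overlaps 4.67% of the Cacna1d exon bases of all annotated transcripts and had a log2 fold change of 0.56 (edgeR adjusted p 0.214) from a level near 1 CPM. The strand setting of the counting is not given, and the part of such reads in the Cacna1d count was not tested.

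Both T-type pore genes pointed upward, and the more abundant was called. Cacna1g (Entrez 12291), a T-type pore of nodal and conduction tissue, had 52.1, 44.8, 51.6 and 50.2 CPM in AE3-null replicates 1 to 4. Wild-type replicates 1 to 4 had 41.0, 41.6, 42.8 and 39.3 CPM. Every AE3-null library was higher, with replicate 2 closest to the wild-type range. The rise was log2 0.28 (SE 0.054, edgeR adjusted p 0.00532). Cacna1h (Entrez 58226), the T-type pore that is prominent in fetal and hypertrophied ventricles, had 2.91, 1.94, 3.53 and 3.90 CPM in AE3-null replicates 1 to 4 and 2.41, 2.32, 2.76 and 1.87 CPM in wild-type replicates 1 to 4. AE3-null replicate 2 lay within the wild-type range and the other 3 AE3-null libraries above it. Its log2 fold change was 0.47 (SE 0.190), close to that of Cacna1d, but the adjusted p was 0.159 by edgeR on 18 to 106 counts per AE3-null library and 34 to 42 per wild-type library.

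No β subunit gene was called. Cacnb2 (Entrez 12296), the main cardiac β subunit, had 83.1, 85.8, 92.8 and 101 CPM in AE3-null replicates 1 to 4, against 73.6, 78.7, 87.0 and 84.6 CPM in wild-type replicates 1 to 4. The 2 lowest AE3-null libraries lay inside the wild-type range. The difference was log2 0.17 (SE 0.067, edgeR adjusted p 0.168). Cacnb1 (Entrez 12295), the β subunit of the skeletal muscle channel that the heart also expresses, averaged 11.4 ± 1.60 CPM in AE3-null hearts and 10.2 ± 1.22 CPM in wild-type hearts (SD, n = 4 each), with a log2 fold change of 0.18 (SE 0.105, edgeR adjusted p 0.340). Replicate 2 was the lowest library in both genotypes. Cacnb3 (Entrez 12297), a β subunit of neurons and smooth muscle, averaged 5.13 ± 0.367 CPM in AE3-null hearts and 5.48 ± 0.791 CPM in wild-type hearts (SD, n = 4 each), with a log2 fold change of -0.08 (SE 0.120, edgeR adjusted p 0.761). The groups overlapped in all 3 β genes.

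**Figure D2:**
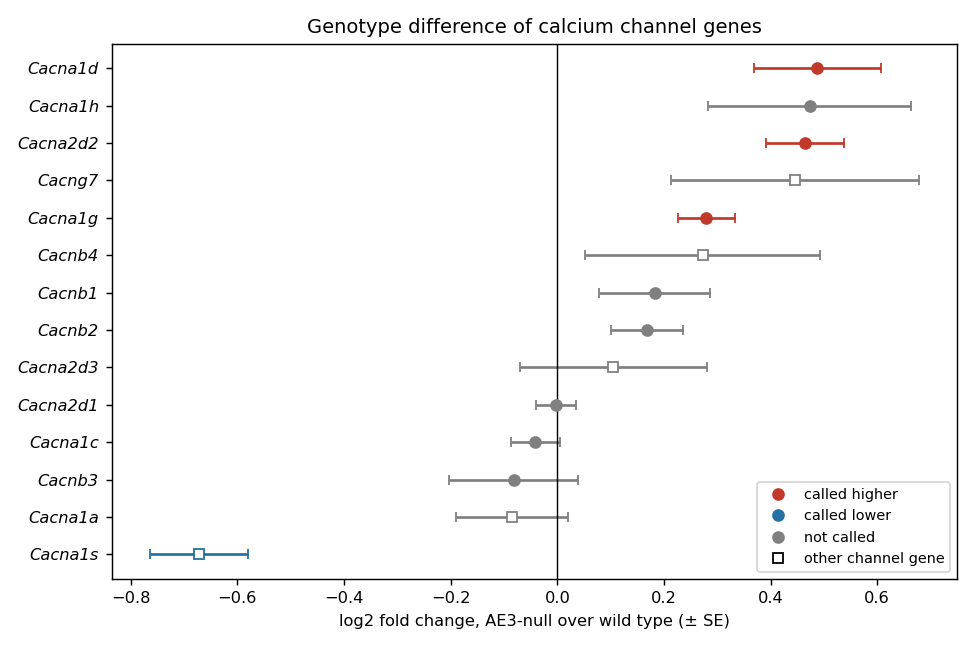
Log2 fold change of each tested calcium channel gene, AE3-null over wild type, with its standard error (bars). Filled circles are the 9 tested subunit genes and open squares the 5 other tested channel genes. Cacna1d, Cacna2d2 and Cacna1g were called higher (log2 0.49, 0.46 and 0.28) and Cacna1s lower (-0.67).

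The γ subunit gene Cacng6 (Entrez 54378), known from skeletal muscle and heart, was near the limit of detection and did not pass the filter. Its counts were 1, 0, 1 and 0 in AE3-null replicates 1 to 4 and 1, 2, 5 and 3 in wild-type replicates 1 to 4. With no filter on low counts its edgeR p was 0.0105 unadjusted and 0.121 adjusted, so the smaller AE3-null total of 2 counts, against 11 in wild-type libraries, did not pass the threshold.

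Among the AE3-null libraries, the shallowest one, replicate 2, had the lowest CPM in 7 of the 9 tested members, and replicate 4, the deepest, had the highest in 5. The part of depth in this order was not tested. Without AE3-null replicate 2, Cacna1d, Cacna1g and Cacna2d2 were again the called members.

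Per exonic length, Cacna1c, Cacna2d1 and Cacnb2 were the most abundant members, and the others followed in a graded series. Levels were divided by the combined length of each gene's exons in the basic transcript set of GENCODE vM21, so levels and their order depend on which isoforms the heart uses. Cacna1c came first at 27.5 ± 0.947 CPM per kilobase in AE3-null hearts and 28.3 ± 2.03 CPM per kilobase in wild-type hearts (SD, n = 4 each). Cacna2d1 and Cacnb2 followed, at 18.7 ± 0.577 and 18.8 ± 1.70 CPM per kilobase in AE3-null hearts and 18.7 ± 0.578 and 16.8 ± 1.25 CPM per kilobase in wild-type hearts. The ranges of these 2 genes overlapped in both genotypes, so their order was not resolved at these lengths. With the exons of all annotated transcripts, a length added once the values were known, Cacnb2 is longer and was at 6.86 ± 0.619 CPM per kilobase in AE3-null hearts and 6.12 ± 0.456 CPM per kilobase in wild-type hearts, below Cacna2d1 at 12.6 ± 0.390 CPM per kilobase in both. Next came Cacna1g at 5.84 ± 0.395 CPM per kilobase in AE3-null hearts and 4.84 ± 0.169 CPM per kilobase in wild-type hearts. Cacna2d2 was at 4.46 ± 0.418 CPM per kilobase in AE3-null hearts and 3.27 ± 0.244 CPM per kilobase in wild-type hearts, without overlap with Cacna1g in either genotype. Cacnb1 lay at 2.82 ± 0.396 CPM per kilobase in AE3-null hearts and 2.53 ± 0.303 CPM per kilobase in wild-type hearts, and Cacnb3 at 1.73 ± 0.124 and 1.85 ± 0.267 CPM per kilobase in AE3-null and wild-type hearts. Cacna1d, at 0.684 ± 0.0494 CPM per kilobase in AE3-null hearts and 0.495 ± 0.0735 CPM per kilobase in wild-type hearts, and Cacna1h, at 0.373 ± 0.104 and 0.284 ± 0.0442 CPM per kilobase in AE3-null and wild-type hearts, were the sparsest tested members.

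**Figure D3:**
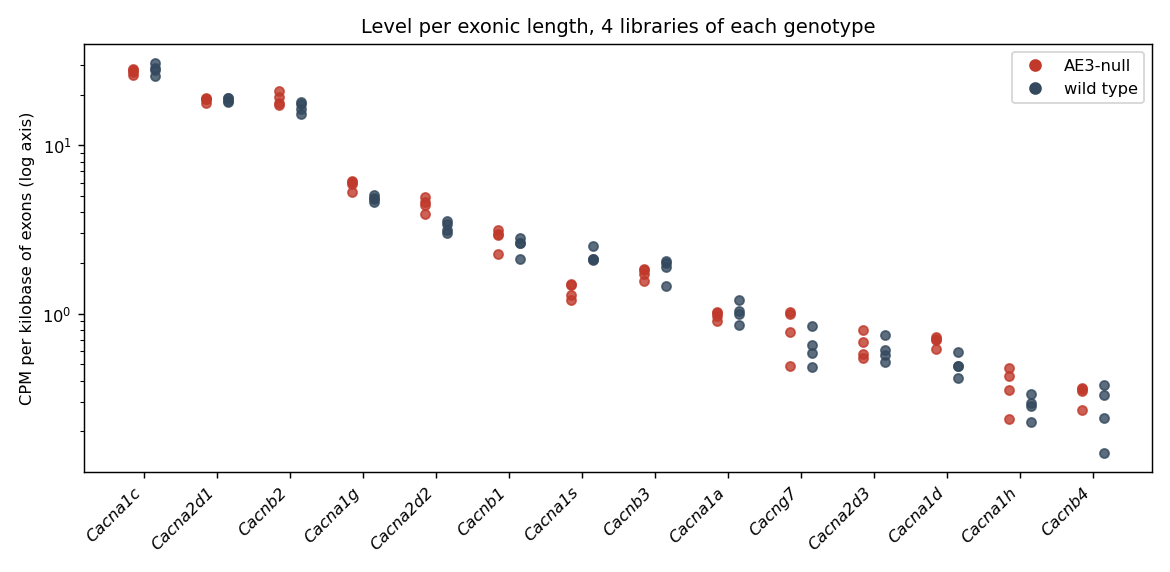
CPM per kilobase of exons of the basic transcript set (log axis) of the 14 tested calcium channel genes, ordered by their wild-type mean; each point is a library, AE3-null left of wild type. Cacna1c, Cacna2d1 and Cacnb2 lie between 15.3 and 30.6 CPM per kilobase in every library, and Cacna1d and Cacna1h at or below 0.721.

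Within each kind of subunit, 1 gene made up most of the summed level in both genotypes. Of the summed level per kilobase of the 10 pore genes of the family, Cacna1c made up 74.7% ± 0.924 in AE3-null hearts and 76.0% ± 1.48 in wild-type hearts (SD, n = 4 each). The share of Cacna1g was 15.9% ± 0.643 in AE3-null hearts and 13.1% ± 1.16 in wild-type hearts, and that of Cacna1d was 1.86% ± 0.082 in AE3-null hearts and 1.34% ± 0.256 in wild-type hearts. Cacnb2 made up 79.4% ± 1.86 of the 4 β genes in AE3-null hearts and 78.2% ± 1.95 in wild-type hearts, or 62.5% ± 2.65 and 61.1% ± 2.66 in AE3-null and wild-type hearts with the exons of all transcripts. Among the 4 α2δ genes, the share of Cacna2d2 was 18.8% ± 1.51 in AE3-null hearts and 14.5% ± 0.918 in wild-type hearts. These shares are given as descriptions, without a test.

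Ratios of paired subunit genes within a library do not depend on library scaling. The log2 count ratio of Cacna2d2 to Cacna2d1 was -2.62, -2.80, -2.47 and -2.48 in AE3-null replicates 1 to 4 and -3.19, -2.95, -2.97 and -3.04 in wild-type replicates 1 to 4. The genotypes did not overlap, and the mean ratio was higher by 0.45 in AE3-null hearts (exact permutation test, two-sided, p 0.0286, adjusted over 4 ratios 0.0571). For Cacna1d over Cacna1c the mean log2 ratio was -6.08 ± 0.078 in AE3-null hearts and -6.60 ± 0.289 in wild-type hearts (SD, n = 4 each), higher by 0.51 with the same exact p of 0.0286 and adjusted p of 0.0571. Here too all 4 AE3-null libraries were above all 4 wild-type libraries. A p of 0.0286 is the smallest that 4 against 4 libraries can give, so with 2 such ratios among 4 the adjusted p could not pass the threshold. The ratio of Cacna1g to Cacna1h was lower by 0.09 in AE3-null hearts (4.05 ± 0.357 in AE3-null and 4.13 ± 0.181 in wild-type hearts, exact permutation p 0.714). That of Cacnb2 to Cacnb1 differed by 0.01 (2.999 ± 0.206 in AE3-null and 2.99 ± 0.173 in wild-type hearts, exact permutation p 0.943). In both pairs the genotypes overlapped.

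**Figure D4:**
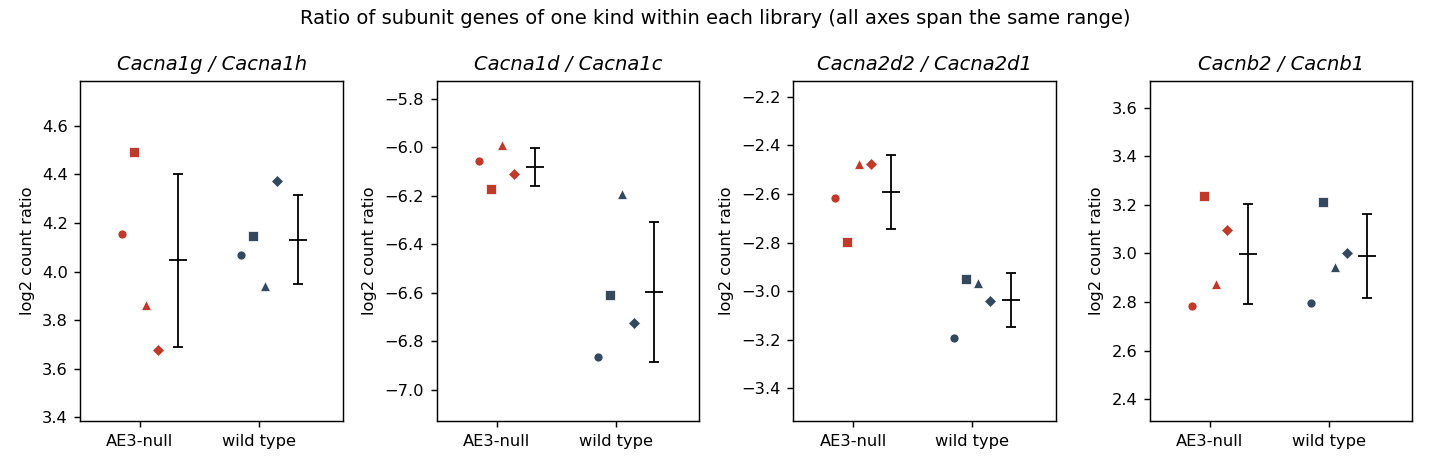
Log2 count ratio of each pair of subunit genes in every library (points, marker shape gives the replicate number as in the plot of CPM by library), with the mean and SD of 4 libraries. AE3-null lies above wild type without overlap for Cacna1d over Cacna1c and Cacna2d2 over Cacna2d1, by 0.51 and 0.45, and overlaps it for the other pairs.

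Outside the 10 members, the family holds 16 further pore and auxiliary genes, of which 5 passed the filter and 1 was called. Cacna1s (Entrez 12292), the L-type pore that acts as the voltage sensor of skeletal muscle contraction, fell in AE3-null hearts. It had 8.26, 7.76, 9.58 and 9.54 CPM in AE3-null replicates 1 to 4, against 13.5, 13.6, 13.4 and 16.1 CPM in wild-type replicates 1 to 4. All 4 AE3-null libraries lay below all 4 wild-type libraries, as in 6.15% of all tested genes. The fall was log2 -0.67 (SE 0.092, edgeR adjusted p 0.000431), and its share of the summed pore level per kilobase was 3.72% ± 0.301 in AE3-null hearts and 5.92% ± 0.291 in wild-type hearts (SD, n = 4 each). The annotated gene Gm37759 on the opposite strand overlaps 20% of its exon bases of all annotated transcripts, and its part in the count was not tested. Cacna1s lies on chromosome 1, as does Slc4a3, and the distance between them was not examined.

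The other tested family genes were not called. The P/Q-type pore gene Cacna1a of nerve terminals had a log2 fold change of -0.09 (SE 0.105), the β gene Cacnb4 0.27 (SE 0.220), the α2δ gene Cacna2d3 0.11 (SE 0.175) and the γ gene Cacng7 0.45 (SE 0.232), with edgeR adjusted p-values of 0.705, 0.521, 0.794 and 0.287. The remaining 11, among them the T-type pore gene Cacna1i, averaged no more than 0.327 CPM in either genotype, and 3 of them, Cacng2, Cacng3 and Cacng8, had no count in any library.

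Of 30 genes for proteins that bind, anchor or modify these channels 26 were tested, and 1 rose and 1 fell, where 6.47% of all tested genes were called. At an adjusted p under 0.1, 5 of the 26 were called, and 6 at 0.05 without wild-type replicate 3. Calls over all genes grew as well in these settings, to 1546 and 1727 in place of 915. Cav3, the caveolin of muscle caveolae in which part of the L-type channels sits, averaged 64.6 ± 2.06 CPM in AE3-null hearts and 56.8 ± 1.02 CPM in wild-type hearts (SD, n = 4 each; log2 0.18, SE 0.043, edgeR adjusted p 0.0172). Jph2, the junctophilin that holds the transverse tubule against the sarcoplasmic reticulum, averaged 765 ± 25.2 CPM in AE3-null hearts and 881 ± 59.3 CPM in wild-type hearts (SD, n = 4 each; log2 -0.20, SE 0.044, edgeR adjusted p 0.0121). The call of Jph2 was lost without wild-type replicate 4 (0.0536), and that of Cav3 without wild-type replicate 4 or AE3-null replicate 3 or 4 (0.0529 to 0.0666). Without wild-type replicate 4 edgeR called none of the 26, and 6 had an unadjusted p under 0.05. Just outside the threshold were the anchoring protein gene Akap6 (log2 -0.13, edgeR adjusted p 0.0870) and Prkaca, a catalytic subunit of protein kinase A (log2 0.12, edgeR adjusted p 0.0873). Rem1, a small GTPase that inhibits L-type channels, followed and was named after its values were seen: it had 9.59 to 11.6 CPM in AE3-null libraries and 8.04 to 9.36 CPM in wild-type libraries (log2 0.27, edgeR adjusted p 0.0876).

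Markers of the atria moved in the same direction as Cacna1d, Cacna1g and Cacna2d2. Of 13 atrial markers 10 rose and none was at 0, and 11 had positive fold changes against 2 negative. Their summed level was 4346.5 to 4972 CPM in AE3-null libraries and 3295 to 3858 CPM in wild-type libraries. Nppa makes up most of this sum, averaging 2783 CPM in AE3-null hearts and 2077 CPM in wild-type hearts. Of 9 nodal and conduction markers 7 were tested and 1, the pacemaker channel gene Hcn4, rose (log2 0.30, edgeR adjusted p 0.0478), with summed levels of 170.1 to 175 CPM in AE3-null libraries and 152 to 179.7 CPM in wild-type libraries. Of 14 neuronal and Schwann cell markers 6 were tested and 1, Dbh, rose (log2 0.82), with sums of 23.0 to 26.4 CPM in AE3-null libraries and 17.7 to 20.7 CPM in wild-type libraries. Th and Chat, which define catecholamine and acetylcholine neurons, were at no more than 0.0737 and 0.0368 CPM in any library. Among 11 smooth muscle markers 2 were called higher and 1 lower, and 8 had positive fold changes against 3 negative. The lower one, Des, was the most abundant, averaging 2227 CPM in AE3-null hearts and 2483 CPM in wild-type hearts. The sums, which Des dominates, were 3711 to 4001.5 CPM in AE3-null libraries and 3827 to 4165 CPM in wild-type libraries. They therefore do not describe the other smooth muscle markers. None of 7 ventricular markers was called by edgeR, DESeq2 or limma voom, 2 having an unadjusted p under 0.05 in each. By edgeR these were Irx4 (log2 0.19, adjusted p 0.0507), without overlap of the genotypes, and Lbh (log2 0.20, adjusted p 0.161). Both were higher in AE3-null hearts, while 3 of the 7 had negative fold changes. Without wild-type replicate 4 edgeR called 1 of the 7. The ventricular sums were 26705 to 29098 CPM in AE3-null libraries and 26918 to 28425 CPM in wild-type libraries. Myh7 makes up most of them, averaging 17391 CPM in AE3-null hearts and 17370 CPM in wild-type hearts. Of 10 skeletal muscle markers 6 were tested and 1, Acta1, fell. The sums were 2398 to 2579.6 CPM in AE3-null libraries and 2828 to 3456.5 CPM in wild-type libraries. Ckm and Acta1 dominate them, averaging 2041 and 260 CPM in AE3-null hearts and 2188 and 712 CPM in wild-type hearts. The myosin genes Myh1, Myh2 and Myh4 had log2 fold changes of 0.01, 0.09 and -0.01. Of the 6 tested markers 3 had positive and 3 negative fold changes, with a median log2 of -0.0019. Myod1, which defines the lineage, was at no more than 0.124 CPM. Endothelial markers were called lower in 5 of 10 cases, and all 10 had negative fold changes. Fibroblast markers were called lower in 3 of 10 cases, 6 having negative and 4 positive fold changes. One of the 4, Lum, was not called by edgeR (log2 0.31, adjusted p 0.0657). It was called higher by DESeq2 (adjusted p 0.00367) and limma voom (adjusted p 0.0247). For Lum all 4 AE3-null libraries lay above all 4 wild-type libraries. The sums of endothelial and fibroblast markers were 1602 to 1660 and 1958 to 2041 CPM in AE3-null libraries, against 1783 to 1982 and 1866 to 2153 CPM in wild-type libraries. The part of these cell types in the channel gene differences was not tested.

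The genes whose pattern over the 8 libraries was most like that of Cacna2d2 were Lepr, Ovgp1 and Mybphl. Members and symbols of predicted or provisional genes were left out of this ranking. The 3 genes were picked for their likeness, so genotype differences close to that of Cacna2d2 follow from the choice. Their values are given as a description. Likeness was the root mean square difference of centred log2 CPM, which was 0.042, 0.060 and 0.061 for these genes, against 0.082 for Cacna1d, 0.111 for Cacna1g and 0.246 for Cacna2d1. Lepr, the leptin receptor, had 15.1, 14.3, 15.8 and 17.1 CPM in AE3-null replicates 1 to 4 and 10.4, 11.4, 12.7 and 11.4 CPM in wild-type replicates 1 to 4 (log2 0.46, edgeR adjusted p 0.00353). Mybphl, a myosin-binding protein gene of the atria, had a log2 fold change of 0.42. Ovgp1 was low, at 1.71 ± 0.194 CPM in AE3-null hearts and 1.15 ± 0.118 CPM in wild-type hearts (SD, n = 4 each), and was not called (edgeR adjusted p 0.0847).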

How the data were processed

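The authors deposited 1 table of raw read counts, with genes in rows and 1 column for each library. The submitters' processing notes name bcl2fastq, CASAVA 1.8, TopHat, DESeq and the mouse build mm9. How reads were assigned to genes, with which annotation and strand setting, is not given in the sources used here. Groups came from the library titles and genotype labels. Of 23282 Entrez numbers 23185 were matched to a symbol in a RefSeq table of GRCm38.p6, which was used for names and for the printed sequences only.

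The filterByExpr function of edgeR, with a minimum count of 10, left 14136 genes. AE3-null was compared with wild type by the robust quasi-likelihood test of edgeR with TMM scaling, no covariates and Benjamini-Hochberg adjustment over all tested genes. Log2 fold changes are AE3-null over wild type, and each standard error is the fold change divided by the square root of F. Ratios of counts, with 0.5 added, were compared by two-sided exact permutation over all 70 splits. Total counts set the precision. Replicates of a genotype differed by a chi-square of at least 2.51 per gene, so none was a copy. The steps were tested on simulated data. The members and lists were chosen with earlier results of these data known. Named genes were all members, the tested channel genes, the called regulators, the 2 regulators nearest to the threshold and the 3 genes most like the member with the smallest p. Members and symbols of predicted or provisional genes were left out of that likeness ranking. Of the genes outside this rule, Chdh, Gm37759, the cell type markers and the untested channel genes were named to accompany results, and Rem1 was chosen after its values were seen. Alternatives were RLE or total-count scaling, no filter or a minimum count of 50, DESeq2, limma voom, no robust moderation, an adjusted p under 0.1, the replicate number as a block, each library left out and, for ratios, 10 counts added. The exon lengths of all transcripts were added as an alternative once the values were known. Versions were edgeR 4.0.16, DESeq2 1.42.0 and limma 3.58.1 under R 4.3.3.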

Additional observations from a re-analysis of the deposited data

Results flagged for a closer look

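In 3 of 36 groups of 4 libraries, 1 library stood apart from the other 3 by most of the group's range, where chance gives about 1 in 20. Cacna2d1 was at 149.3 CPM in AE3-null replicate 3, against 158.1 to 159.7 CPM in the other AE3-null libraries. Cacna1s was at 16.05 CPM in wild-type replicate 4, against 13.38 to 13.56 CPM in the other wild-type libraries, and was called lower in AE3-null hearts with that library left out. Cacnb4 was at 2.316 CPM in AE3-null replicate 1, against 3.016 to 3.158 CPM in the other AE3-null libraries.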

How the results depend on the processing

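The calls of Cacna1g, Cacna2d2 and Cacna1s held under all 17 alternatives, with log2 fold changes of 0.26 to 0.32, 0.41 to 0.51 and -0.72 to -0.60. Of the 17, the looser adjusted p of 0.1 used the main fit and so could not remove a call. The call of Cacna1d was lost in 5 of 17, all with 1 library left out, and the number of called members was 2 to 3 with single libraries left out and 4 with a replicate block. The labels do not say whether same-numbered libraries belong together. Same-numbered libraries deviated together with a correlation over 0.1 in 1 of 4 pairs (0.162 for replicate 1). Of the 8 libraries, 2 correlated best with their own number. With only 4 pairs these values cannot decide whether the numbers mark a shared origin. In the fit with a replicate block Cacnb2 was called (log2 0.17, edgeR adjusted p 0.0349). Over all genes, leaving out single libraries gave 407 to 1727 calls in place of 915: 1727 without wild-type replicate 3, 431 without wild-type replicate 4, and 581, 569 and 407 without AE3-null replicates 1, 3 and 4. An adjusted p under 0.1 gave 1546 calls, 5 of them regulators in place of 2; leaving out single libraries gave 0 to 6 regulators, 6 of them without wild-type replicate 3. Some values near 0 changed sign, none of them called: Cacna2d1 was 0.018 with total counts only, 0.0015 with a minimum count of 50 and 2.24e-05 by DESeq2, and ranged from -0.018 to 0.022 with single libraries left out. Over the same omissions Cacna1c ranged from -0.082 to 0.0011, Cacna1a from -0.16 to 0.010 and Cacna2d3 from -0.0056 to 0.21. The ratio of Cacnb2 to Cacnb1 ranged from -0.069 to 0.085 and that of Cacna1g to Cacna1h from -0.23 to 0.038. Other scalings moved the median of all genes by at most 0.0195. The causes were not tested.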
